A study of Rattus norvegicus with 6 samples.

Results

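The Reg genes encode small secreted proteins built around a single C-type lectin domain. On the arrays of this series 4 of them were read, Reg1a, Reg3a, Reg3b and Reg3g, each by 1 probe set whose platform annotation gives that symbol and no other, so the family makes up 4 of 15866 probe sets and 4 of the 10411 genes with such a probe set. The arrays came from the pancreas of 6 rats (Rattus norvegicus), 3 fed the control diet and 3 fed the ethanol diet, with 1 array per rat, in a study of chronic ethanol consumption. The labels name diet as the single difference between the groups and state no strain, sex, age, diet composition or duration. All 4 probe sets passed the filter on dim signal that left 9520 probe sets for testing. The median intensity was 543 or 544 on every array, so differences in total signal between diets cannot be read from these values.

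Acinar cells, which make the digestive enzymes, are the main source of Reg protein in the exocrine pancreas. Reg1a encodes lithostathine, also called pancreatic stone protein, an abundant component of pancreatic juice. Reg3b, Reg3a and Reg3g encode the pancreatitis-associated proteins PAP I, PAP II and PAP III, which are known as secreted stress proteins induced in acute pancreatitis, with cytokines of the IL-6 family acting through STAT3 among their inducers. In the intestine Reg3b and Reg3g proteins are antibacterial.

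In the RefSeq annotation of the rat assembly GRCr8 the 4 genes neighbour each other on chromosome 4, in the order Reg3b, the pseudogene Reg3b-ps1, Reg3a, Reg1a, a long non-coding RNA gene and Reg3g, with Reg3g on the opposite strand. No build is given for the array. On the ethanol arrays 3 of the 4 genes had lower signal, while their neighbour Reg3g, read by a dim probe set, did not. For this reason the windows from 250 bases before to 50 after the annotated start are shown, from RefSeq on GRCr8. They lie at chr4:112430174-112430473 (plus strand) for Reg3a, chr4:112419526-112419825 (plus) for Reg3b, chr4:112450216-112450515 (plus) for Reg1a and chr4:112484689-112484988 (minus) for Reg3g. RefSeq gives Reg3a 2 starts 27 bases apart, and the downstream one is shown. Each sequence runs 5′ to 3′ on the gene's strand, and capitals mark matches on either strand to TATAAA, the core of a TATA box, or TTCNNNGAA, the core to which STAT factors bind.
Reg3a: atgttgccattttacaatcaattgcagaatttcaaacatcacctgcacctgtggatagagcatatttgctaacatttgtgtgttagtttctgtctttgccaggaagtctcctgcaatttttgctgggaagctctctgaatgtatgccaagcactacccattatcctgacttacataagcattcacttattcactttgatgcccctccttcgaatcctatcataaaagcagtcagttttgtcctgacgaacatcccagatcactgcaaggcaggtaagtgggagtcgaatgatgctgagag
Reg3b: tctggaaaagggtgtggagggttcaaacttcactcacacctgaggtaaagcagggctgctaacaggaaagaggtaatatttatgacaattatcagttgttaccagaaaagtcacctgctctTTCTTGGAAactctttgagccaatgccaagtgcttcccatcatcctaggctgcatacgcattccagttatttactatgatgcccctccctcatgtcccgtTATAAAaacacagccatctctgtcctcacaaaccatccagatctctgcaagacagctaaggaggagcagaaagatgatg
Reg1a: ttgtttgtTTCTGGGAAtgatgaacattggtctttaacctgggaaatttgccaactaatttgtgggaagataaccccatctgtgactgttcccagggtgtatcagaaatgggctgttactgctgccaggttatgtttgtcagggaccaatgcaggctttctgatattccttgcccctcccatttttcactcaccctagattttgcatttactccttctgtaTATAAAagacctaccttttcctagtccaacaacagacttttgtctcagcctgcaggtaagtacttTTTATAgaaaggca
Reg3g: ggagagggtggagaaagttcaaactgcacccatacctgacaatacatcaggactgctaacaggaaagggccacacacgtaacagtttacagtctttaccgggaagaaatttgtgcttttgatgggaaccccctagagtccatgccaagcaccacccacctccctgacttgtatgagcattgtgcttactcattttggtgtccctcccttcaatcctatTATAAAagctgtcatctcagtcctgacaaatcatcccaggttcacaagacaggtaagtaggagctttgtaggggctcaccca

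A TATAAA match began 29 bases upstream of the start in Reg1a and in Reg3b and 32 bases upstream in Reg3g. Reg1a held another on the opposite strand, 36 bases downstream. Of 33469 RefSeq promoter windows of this length 14.2% hold that motif. Here and below, such shares count a match anywhere in the window on either strand, not at a given distance. Reg3a had no TATAAA match. The related letters CATAAA, searched for after the windows were seen, began 31 bases upstream of its start. Reg3b held CATAAA on the opposite strand, 172 bases upstream (12.7% of all windows hold these letters). TTCNNNGAA was found 242 bases upstream in Reg1a and 129 bases upstream in Reg3b, and 8.87% of all windows hold it. It was found in neither the Reg3a nor the Reg3g window, nor in the window of the other Reg3a start. In global alignments, Reg3a and Reg3b shared 202 identical bases of the 300 in a window, Reg3a and Reg3g 197, and Reg3b and Reg3g 197. Reg1a shared 170 with Reg3a, 160 with Reg3b and 160 with Reg3g. Gaps were allowed and no unrelated windows were aligned, so how many identical bases unrelated windows would give was not tested. The E box CANNTG was matched 4 times in Reg3a, 4 times in Reg3b, 1 time in Reg1a and 0 times in Reg3g, against 72.1% of all windows with at least 1 match. TTNNGNAA, letters found in many C/EBP sites, was matched 2 times in Reg3a and in none of the other 3 windows (41.3% of all windows hold it). A match is a description of the letters and not evidence of binding.

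Pancreas of the ethanol-fed rats gave lower Reg3a signal than pancreas of the controls, and the Reg3a difference was the most negative of all 9520 tested probe sets. Reg3b and Reg1a were also lower on every ethanol array, with the 7th and 9th most negative differences, but neither passed the adjusted threshold. Reg3g did not follow them. These ranks are of fitted log2 differences and moved with the settings: Reg3a ranked from 1 to 3, Reg3b from 3 to 40 and Reg1a from 5 to 45, the lowest ranks of all 3 coming without the intensity filter, where 15866 probe sets were ranked.

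The Reg3a probe set read 10659, 7966 and 5250 in control replicates 1, 2 and 3, and 592, 2047 and 957 in ethanol replicates 1, 2 and 3. The lowest control array was 2.56 times as bright as the brightest ethanol array. Group levels were 7958 ± 2705 for the control diet and 1199 ± 757 for the ethanol diet (SD, n = 3 rats each). On the log2(value + 50) scale Reg3a fell by 2.80 (SE 0.42, limma adjusted p = 0.0448), a ratio of 6.95-fold with a 95% interval from 3.57 to 13.5. Calls by this rule were made for 0.41% of the tested probe sets, 0.305% lower and 0.105% higher in ethanol. The Reg3a call was lost in 8 of 13 alternative settings, with adjusted p from 0.00539 to 0.197 over all settings, and its difference stayed between -3.26 and -2.40. It was lost without any 1 of the 3 control arrays (limma adjusted p of 0.163, 0.187 and 0.118 without replicates 1, 2 and 3), without ethanol replicate 1 (0.0566) and without ethanol replicate 3 (0.134), and kept without ethanol replicate 2 (0.0267).

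Reg3b, encoding PAP I, read 3188, 3678 and 1518 in control replicates 1, 2 and 3, and 462, 1218 and 694 in ethanol replicates 1, 2 and 3. The groups did not overlap, although the lowest control array was only 1.25 times as bright as the brightest ethanol array. The means were 2795 ± 1132 and 791 ± 387 (SD, n = 3), a log2 difference of -1.76 (SE 0.40, 95% interval -2.67 to -0.86) that did not pass over all probe sets (limma adjusted p = 0.0957, unadjusted p = 0.00193).

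Reg1a, encoding lithostathine, read 115889, 124375 and 107752 in control replicates 1, 2 and 3. In ethanol replicates 1, 2 and 3 it read 27459, 81624 and 18666. Ethanol replicate 2 was thus much nearer the controls than the other ethanol arrays, and the lowest control was 1.32 times as bright as it. The means were 116005 ± 8312 and 42583 ± 34095 (SD, n = 3), a log2 difference of -1.74 (SE 0.46, 95% interval -2.79 to -0.68) that did not pass (limma adjusted p = 0.125, unadjusted p = 0.00506). Without ethanol replicate 2 the difference was -2.35 and passed (SE 0.21, limma adjusted p = 0.0189), and without ethanol replicate 3 it was -1.29 (SE 0.41, limma adjusted p = 0.231). The control mean stood at 71.0% of the lowest array maximum, and whether compression of bright signal affected it was not tested.

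Reg3g, encoding PAP III, read 514, 224 and 709 in control replicates 1, 2 and 3, and 636, 463 and 652 in ethanol replicates 1, 2 and 3. All 3 ethanol arrays lay inside the range of the controls. The means were 482 ± 244 and 584 ± 105 (SD, n = 3), a log2 difference of 0.36 (SE 0.34, limma adjusted p = 0.607). Its 95% interval ran from -0.43 to 1.14, so with 3 rats a diet it included no change, a small fall and a larger rise. Without control replicate 2, the dimmest array, the difference was -0.06 (SE 0.22).

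**Figure D1:**
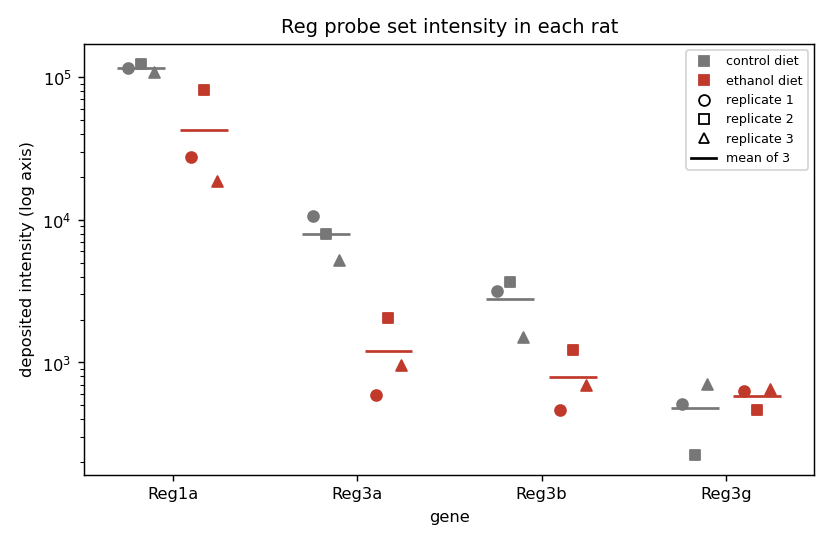
Deposited intensity (log axis) of the 4 Reg probe sets in each rat, grey for the control diet and red for the ethanol diet, with a symbol for each replicate number and a bar at the mean of 3. For Reg1a, Reg3a and Reg3b all 3 ethanol arrays lie below all 3 control arrays, with ethanol replicate 2 the brightest of its group, and for Reg3g the groups overlap.

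The groups were separate, with ethanol below control, for 3 of the 4 Reg probe sets, an arrangement found on 14.3% of all tested probe sets (11.1% had ethanol above control and 25.4% either arrangement). At an unadjusted limma p under 0.05 the same 3 were lower in ethanol, against 10.3% of all tested probe sets (8.08% were higher). Transcript and probe sequences of the 4 genes were not compared. Signal that their probe sets took up from one another or from the pseudogene Reg3b-ps1 could not be measured from these values. In a whole tissue, fewer cells of a type and less RNA per cell cannot be told apart.

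The brightest of the 4 probe sets in control rats was Reg1a, followed by Reg3a, Reg3b and Reg3g. Of all probe sets, 99.9% were dimmer than Reg1a in control rats, 98.1% dimmer than Reg3a, 92.1% dimmer than Reg3b and 45.7% dimmer than Reg3g. This is an order of brightness and not of transcript abundance, because probe sets differ in how strongly they bind. In ethanol rats 99.6%, 76.0%, 62.8% and 52.0% were dimmer than Reg1a, Reg3a, Reg3b and Reg3g. Reg1a stayed the brightest on all 6 arrays. The other 3 kept their order on every control array, but in ethanol replicate 1 Reg3g read above both Reg3a and Reg3b, and the ethanol ranges of Reg3a, Reg3b and Reg3g overlapped.

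Whether any 2 Reg genes changed unequally was tested on the log2 difference between them within each array. A constant difference in binding between probe sets cancels there only in part, since 50 was added to dim values such as those of Reg3g. Reg3a minus Reg3b was 1.73, 1.10 and 1.76 in control replicates 1, 2 and 3, and 0.33, 0.73 and 0.44 in ethanol replicates 1, 2 and 3. Reg3a was thus closer to Reg3b in every ethanol rat than in any control rat (shift -1.03, two-sided exact permutation p = 0.1, adjusted p = 0.24 over 6 pairs). Reg3a minus Reg3g was 3.97 ± 1.06 in control and 0.82 ± 1.09 in ethanol rats (SD), again without overlap (shift -3.16, exact permutation p = 0.1, adjusted p = 0.24). Reg3b minus Reg3g (shift -2.12) and Reg1a minus Reg3g (shift -2.09) overlapped between the diets (exact permutation p = 0.2, adjusted p = 0.24 for both). Reg1a minus Reg3a had a shift of 1.06 (exact permutation p = 0.2, adjusted p = 0.24) and Reg1a minus Reg3b of 0.03 (exact permutation p = 1, adjusted p = 1). With 3 arrays against 3 this test cannot give a p below 0.1, so no pair could pass.

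The ethanol rats differed widely among themselves in Reg1a and Reg3a. Over the ethanol arrays the brightest Reg1a value was 4.37 times the dimmest, against 1.15 times over the controls. The SD of log2 values for Reg1a was 1.10 in ethanol rats and 0.10 in control rats, where the median over all tested probe sets was 0.21 and 0.18. Those probe sets were not matched to Reg1a for brightness, and nearly all of them were dimmer. Of all tested probe sets, 99.6% had a smaller ethanol SD than Reg1a and 23.3% a smaller control SD. For Reg3a the SD was 0.86 in ethanol rats and 0.51 in control rats, for Reg3b 0.66 and 0.67, and for Reg3g 0.25 and 0.76. Reg3a and Reg3b were thus also among the more variable probe sets in control rats (96.3% and 98.7% of probe sets had a smaller control SD), and Reg3g was variable in control rats but not in ethanol rats. These are descriptions of 3 arrays per diet, and the difference in spread was not tested.

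**Figure D2:**
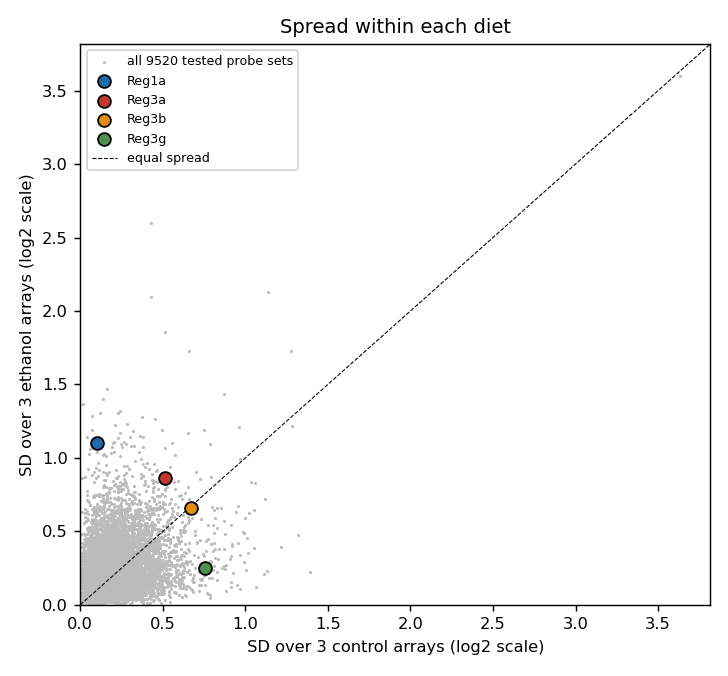
SD of log2(value + 50) over the 3 ethanol arrays against the SD over the 3 control arrays for all 9520 tested probe sets (grey) and the 4 Reg probe sets (coloured), with the dashed line at equal spread. Reg1a lies far above the line (1.10 against 0.10), Reg3a above it, Reg3b on it and Reg3g below it.

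Read array by array, Reg1a, Reg3a and Reg3b were highest in ethanol replicate 2 among the ethanol rats and lowest in control replicate 3 among the controls, whereas Reg3g was highest in replicate 3 and lowest in replicate 2 of both diets. Against the mean of the 3 controls, ethanol replicate 2 was lower by a log2 difference of -0.50 for Reg1a, -1.87 for Reg3a and -1.07 for Reg3b. Ethanol replicate 1 stood at -2.07, -3.58 and -2.38 and ethanol replicate 3 at -2.63, -2.93 and -1.84 for the same 3 genes. Ethanol replicate 2 was not the highest ethanol array throughout: it was so on 33.1% of all tested probe sets on 42% of the 978 that were lower in ethanol at an unadjusted p under 0.05, and on 51.7% of the 29 called lower, Reg3a among them. Mt2A, the metallothionein that came closest to Reg3a in profile, read 7176, 5962 and 5805 in ethanol replicates 1, 2 and 3, with no rise in replicate 2.

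**Figure D3:**
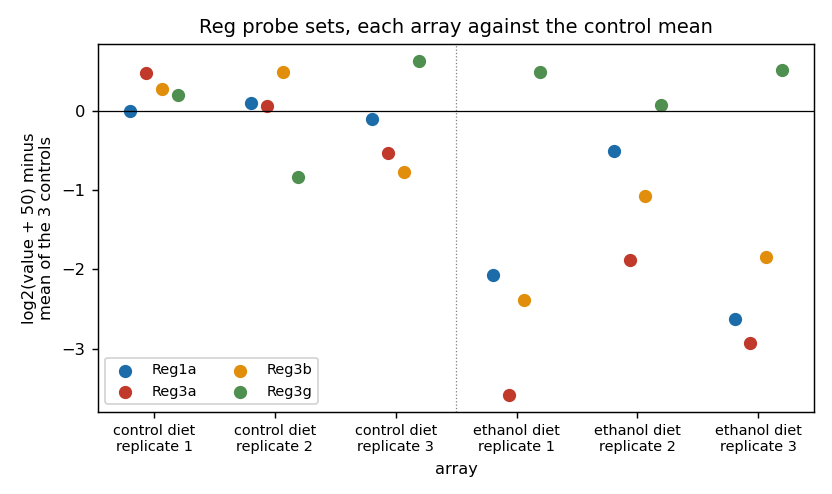
Log2(value + 50) of each Reg probe set on each array minus its mean over the 3 control arrays, with 1 coloured point per gene and array. Reg1a, Reg3a and Reg3b lie below 0 on all 3 ethanol arrays and least so in ethanol replicate 2, while Reg3g lies slightly above 0 on all 3.

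Likeness of profile was measured as the root mean square difference, over the 6 arrays, between log2 values centred on each probe set's control mean, with 1 probe set per gene for 7106 genes. Among non-members the gene nearest to Reg1a was Vps37c, an ESCRT-I subunit, at a root mean square difference of 0.22. Vps37c read 915, 838 and 1232 in control replicates 1, 2 and 3, and 189, 704 and 130 in ethanol replicates 1, 2 and 3, an order of arrays that the choice by likeness fixes. Next came Lsm3, an RNA-binding protein of the Sm-like family (0.39), and Cops5, the catalytic subunit of the COP9 signalosome (0.46). For Reg3b the nearest were the ubiquitin ligase Rnf114 (0.26), Cnot10, a subunit of the CCR4-NOT complex (0.44), and Cops5 again (0.46). For Reg3a they were Mt2A (0.79), the kinase Dapk2 (0.80) and Rnf114 (0.81). For Reg3g they were the sialyltransferase St8sia4 (0.16), the centromere chaperone Hjurp (0.16) and Cacng5 (0.18). Of these 10 genes Mt2A alone passed the diet test over all probe sets (limma adjusted p = 0.00271). Within the family Reg3b was the gene nearest to Reg3a of all 7106 (0.77), and Reg1a was the 5th nearest (0.88). Reg3a was only the 60th nearest to Reg3b and the 107th nearest to Reg1a. The measure also counts the size of the diet difference, which was the most negative for Reg3a. Reg1a and Reg3b differed by 0.53, with Reg3b the 6th nearest to Reg1a and Reg1a the 8th nearest to Reg3b. Reg3g stood 1.75, 2.40 and 1.77 from Reg1a, Reg3a and Reg3b.

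Genes of the cytokine signalling known to induce Reg genes showed no call between the diets. Of 44 genes listed (ligands and receptors of the IL-6, IL-22, IL-17, interferon gamma and TNF systems, JAK and STAT members, their inhibitors, downstream factors, and Extl3, described as a receptor for Reg protein), 23 passed the intensity filter. Limma called 0 of the 23, and an unadjusted p under 0.05 was reached by 4, all lower in ethanol. That is 17.4% of the list, against 18.4% of all tested probe sets in either direction and 10.3% lower in ethanol. The list's median log2 difference was -0.17, against 0.00020 over all tested probe sets. The 4 were Pias3, an inhibitor of STAT3, at 1241 ± 235 in control and 690 ± 9.17 in ethanol rats (SD, n = 3; -0.79, SE 0.17, limma adjusted p = 0.0877), the IL-11 receptor chain Il11ra1 (-0.36, SE 0.14), the phosphatase Ptpn6 (-0.35, SE 0.14) and Il6st, the signalling chain gp130 shared by IL-6 family receptors (-0.40, SE 0.16). The other Il6st probe sets gave -0.55 and -0.27. Stat3 itself read 1984 ± 39.3 in control and 2403 ± 76.0 in ethanol rats (SD, n = 3), a log2 difference of 0.27 (SE 0.13) that did not pass, and another Stat3 probe set gave -0.23. The log2 difference was 0.36 (SE 0.23) for Socs3, an inhibitor that STAT3 induces, and 0.07 (SE 0.14) for Extl3. The ligands Il6, Ifng and Tnf were below the filter in both diets.

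**Figure D4:**
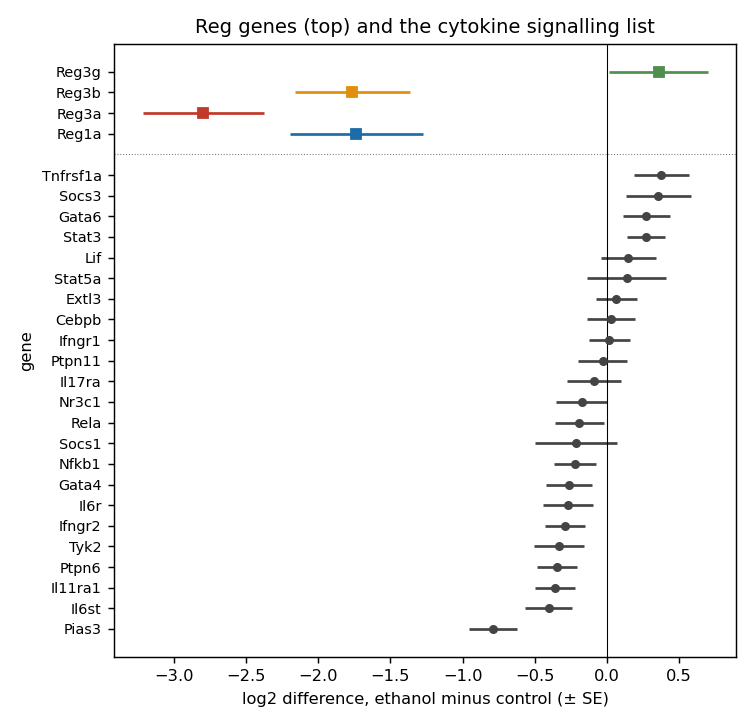
Log2 differences, ethanol minus control, with standard errors for the 4 Reg genes (top, coloured squares) and the 23 tested genes of the cytokine signalling list (grey). Reg3a, Reg3b and Reg1a lie between -2.80 and -1.74, and the lowest gene of the list, Pias3, at -0.79.

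Acute phase genes, many of them also induced by IL-6, were called in 0 of 16 tested genes by limma. An unadjusted p under 0.05 was reached by 3, all higher in ethanol, and the list's median was 0.14. That is 18.8% of the list, against 18.4% of all tested probe sets in either direction and 8.08% higher in ethanol. The pentraxins Apcs (0.76, SE 0.26) and Crp (0.55, SE 0.22), the hyaluronan receptor Cd44 (0.34, SE 0.14, another probe set 0.93) and the protease inhibitor Timp1 (0.35, SE 0.18) had the smallest p. Other genes with C-type lectin domains were called in 0 of 14 by limma. Of them 1 was higher and none lower by the unadjusted p, and the median was 0.13. That is 7.14% of the list, against 18.4% of all tested probe sets in either direction and 8.08% higher in ethanol. Clec3b (0.34, SE 0.14), Clec11a (0.57, SE 0.25), Pkd1 (0.34, SE 0.20) and Cd93 (0.23, SE 0.17) had the smallest p there. Of 26 tested genes on a list of other acinar secretory genes, limma called 1, Lgals2, which rose (2.58, SE 0.31, limma adjusted p = 0.0287). Lgals2 is a galectin and not a digestive enzyme, and it was listed with earlier results of these data known. No other gene of that list was called. Lgals2 read 247, 65 and 123 in control replicates 1, 2 and 3, and 943, 1222 and 958 in ethanol replicates 1, 2 and 3. It passed the intensity filter only through the ethanol arrays, so its call is no support for the list, and with a constant of 20 it was not tested. Amy1 (-0.90, SE 0.15, limma adjusted p = 0.0524) was lower at an unadjusted p under 0.05, and Spink1l (0.24, SE 0.14) and Dnase1 (0.23, SE 0.15) were not past it. By the unadjusted p that list thus held 2 genes, 7.69% against 18.4% of all tested probe sets, and its median was 0.04.

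Markers of the cell types a pancreas sample could hold were read beside the Reg values. Summed over 9 acinar markers, of which Cpa1 (163511 and 165503) and Pnlip (155292 and 166457) were brightest, the signal ran from 922055 to 943647 in control rats and from 948397 to 981299 in ethanol rats. The sum is made up mostly of a few very bright probe sets, and whether compression of bright signal affected it was not tested. The acinar transcription factors read lower on the scale, Ptf1a at 9410 and 12910 (log2 difference 0.45) and Bhlha15 at 6651 and 6484 (-0.06) in control and ethanol rats. Duct markers, 3 of 7 tested and led by Muc1 and Car2, summed to 10072 to 10701 and 8391 to 9970. Islet markers, 6 of 8 and led by Ins1 and Ins2, summed to 148506 to 181833 and 115601 to 181181. Leukocyte markers, 4 of 10 and led by Lyz2 and Cd74, summed to 5884 to 7618 and 5140 to 6784, with the pan-leukocyte gene Ptprc below the filter.

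Stellate markers, 4 of 6 and led by Col3a1 and Vim, summed to 7789 to 13461 in control and 7321 to 11515 in ethanol rats, and adipocyte markers, 2 of 4 (Lpl and Fabp4), to 3600 to 5803 and 5962 to 7945. Erythroid markers, 4 of 5 and led by Hbb and Hba-a3, ran from 15433 to 22883 in control and from 25617 to 33312 in ethanol rats. Since the intestine also makes Reg3 proteins and lies beside the pancreas, intestinal markers were read as well. Below the filter were Fabp2 (means of -184 and -231 in control and ethanol rats), Apoa4 (18.7 and -140), Fabp1 (199 and 288) and Muc2 (266 and 297). The 3 of 10 that passed the filter, led by Anpep and Cdx2, summed to 7491 to 10249 and 5993 to 7413. Acinar, erythroid and adipocyte sums were thus higher on every ethanol array than on any control array, and duct and intestinal sums lower. Some gaps were small, such as 7413 against 7491 for intestine and 5962 against 5803 for adipocytes. Of single tested probe sets, 25.4% had groups that did not overlap, in either direction. The part of these sums in the Reg result was not tested. A sum follows its brightest members: Muc1 was at -0.27 while Car2 was at 0.45, Lpl at 0.77 while Fabp4 was at -0.13, and Anpep at -0.47 while Cdh17 was at 0.22, log2 differences of which none passed.

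**Figure D5:**
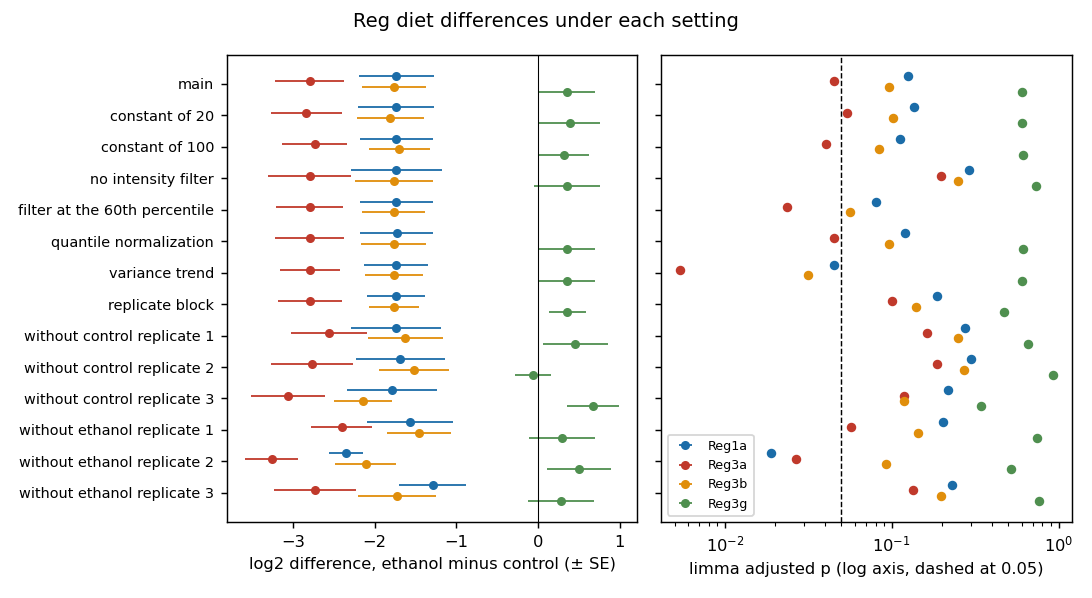
Log2 differences with standard errors (left) and limma adjusted p on a log axis (right) of the 4 Reg genes under the main setting and 13 alternatives, with the dashed line at 0.05. Reg3a lies left of the dashed line in 6 of the 14 settings, Reg1a in 2, Reg3b in 1 and Reg3g, which the filter at the 60th percentile removed, in none.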

How the data were processed

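Each pancreas RNA, extracted with a commercial column kit and labelled with biotin per the labels' protocols, gave 1 single-colour array. The authors deposited 1 intensity per probe set and array, on a linear scale. The labels state neither software nor normalization. The values themselves show that some signal was subtracted (931 to 949 below 0 per array), by a step not stated, and that distributions were nearly equal.

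Of 15923 probe sets, 57 controls were left out. Values below 0 were set to 0, 50 was added and the log2 taken, so differences of dim probe sets are understated. Probe sets whose mean reached the 40th percentile were compared by diet with limma 3.58.1 (R 4.3.3) and Benjamini-Hochberg adjustment over all 9520, with a call at an adjusted p under 0.05. The number of arrays limits the precision (median SE 0.18). The procedure was tested on simulated data. A gene of a list was read on its brightest tested probe set with 1 symbol. Pairs of Reg genes were compared by a two-sided exact permutation test in scipy 1.17.1. Promoter windows, matched for all 4 genes, are RefSeq's on GRCr8, aligned with Biopython 1.88.

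Named genes are the 4 Reg genes, the 4 members of each pathway list with the smallest p, the 2 brightest in each marker list, the 3 nearest in profile to each Reg gene and Mt2A. Others (Stat3, Socs3, Extl3, the ligands, Ptprc, Ptf1a, Bhlha15, Cdh17, Fabp2, Apoa4, Fabp1, Muc2) were chosen after their values were seen. The members and lists were chosen with earlier results of these data known. Alternatives were constants of 20 and 100, no filter or one at the 60th percentile, quantile normalization, a variance trend, a replicate block and each array left out.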

Additional observations from a re-analysis of the deposited data

How the results depend on the processing

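The differences of Reg1a, Reg3a and Reg3b kept their sign under all 13 alternatives, and their calls did not. Reg3a was not called with a constant of 20 (-2.84, limma adjusted p = 0.0539), with no filter (-2.80, 0.197) or with the replicate block (-2.80, limma adjusted p just under 0.10). Reg1a (-1.74, 0.0449) and Reg3b (-1.76, 0.0316) were called with a variance trend. With 1 array left out, the differences ran from -3.26 to -2.40 for Reg3a, from -2.35 to -1.29 for Reg1a, from -2.15 to -1.46 for Reg3b and from -0.06 to 0.67 for Reg3g, which reversed only without control replicate 2 (-0.060). The count of called probe sets, 39 by limma, was 12 with a constant of 20, 0 without a filter (2263 by an unadjusted p of 0.05), 134 with a filter at the 60th percentile, 249 with a variance trend, 6 with the replicate block and 2 to 38 with 1 array left out. Reg1a minus Reg3b, at 0.03, reversed to -0.036 with a constant of 100. The acute phase median moved to 0.060 without a filter, over 29 genes, and the medians of the other 3 pathway lists moved by less than 1 SD of that list's own median between arrays of a diet. Same-numbered arrays deviated together with correlations of -0.03, 0.03 and -0.14, so the numbers were not taken as pairs. For dim readings, such as Reg3g at 224 on a control array, the constant added limits the differences.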
